A study of Mus musculus with 12 samples.

Results

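Acat1 and Bdh1, which encode enzymes at the start and at the end of ketone body synthesis, were followed through the livers of mice on 4 diets. They were chosen by name, as every transcript that the deposited table lists under one of these gene names, and they are 2 of its 22170 gene names. Acat1 was listed with 12 transcripts and Bdh1 with 9, and the values of each gene were summed in each liver. Neither gene passed the test in any of the 6 comparisons between diets on the values as deposited. With the libraries scaled by the median of ratios, Acat1 passed in CLE against ND (log2 fold change -0.43, adjusted p = 0.034, limma). With this scaling 2841 of 11553 genes passed in that comparison. Acat1 passed there in 1 of 27 alternatives, and with annotated transcripts alone its estimate turned to 0.32. The share of Acat1 assigned to annotated transcripts was higher in every CLE and LU liver than in every ND and HFD liver. Of the genes compared, 2.55% had this separation in this direction and 7.09% in the other. The livers were divided in this way after the values were seen, and a library property described below divides them alike.

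The livers came from male C57BL/6J mice that began their diets at 5 weeks of age and were fed them for 16 weeks, to 21 weeks of age. The groups were a normal diet (ND), a high-fat diet (HFD), the same high-fat diet with 1.5% by weight of an ethanol extract of Chrysanthemum morifolium leaves (CLE; the labels write CLL), and the high-fat diet with 0.003% by weight of the flavone luteolin (LU). No mouse carried an engineered allele, and the livers were taken after a fast. RNA of 3 livers a group was sequenced, picked by the authors as representative of larger groups, and livers are named below by their group and the number in their label. Expression is given as FPKM, the fragments of a transcript scaled to its length and to the fragments mapped in its library.

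Ketone bodies are made in the mitochondria of hepatocytes when fatty acid oxidation supplies more acetyl-CoA than the citric acid cycle takes up, as in fasting. Acat1 (acetyl-CoA acetyltransferase 1, a mitochondrial thiolase that is not the sterol acyltransferase sometimes given the same symbol) joins acetyl-CoA units to acetoacetyl-CoA, further enzymes turn this into acetoacetate, and Bdh1 reduces acetoacetate to 3-hydroxybutyrate. Acat1 also works in the reverse direction, in the use of ketone bodies outside the liver, and at the end of isoleucine breakdown.

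Acat1 (ENSMUSG00000032047) lies on the minus strand of chromosome 9, from 53580522 to 53610382 of GRCm38 in GENCODE M21. Bdh1 (ENSMUSG00000046598) lies on the plus strand of chromosome 16, from 31422280 to 31458901. Bdh1 has 2 annotated starts in RefSeq, and the bases before each are shown because the values of this gene came mostly from the upstream start. RefSeq gives promoters for 1 of the 2 genes, Bdh1. Both sequences are from GRCm38.p6, on the plus strand, 250 bases long up to the base before the transcription start, with each CG pair in capitals. The upstream one is at chr16:31422047-31422296 and the second at chr16:31428503-31428752.
Bdh1 upstream start: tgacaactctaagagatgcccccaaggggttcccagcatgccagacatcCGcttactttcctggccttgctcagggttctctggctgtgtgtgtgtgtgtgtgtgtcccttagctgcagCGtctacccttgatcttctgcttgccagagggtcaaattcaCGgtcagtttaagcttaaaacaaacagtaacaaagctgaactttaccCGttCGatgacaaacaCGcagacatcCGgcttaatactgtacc
Bdh1 second start: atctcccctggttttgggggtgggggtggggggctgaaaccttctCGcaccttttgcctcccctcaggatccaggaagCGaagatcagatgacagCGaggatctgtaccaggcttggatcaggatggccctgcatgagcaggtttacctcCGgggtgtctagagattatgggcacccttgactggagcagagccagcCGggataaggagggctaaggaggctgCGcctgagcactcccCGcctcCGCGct
The upstream sequence has a GC content of 49.6% and 7 CG pairs, and the second has 60.8% and 9 CG pairs. The medians over the 32851 RefSeq promoters, cut to the same length, are 52.4% and 6 CG pairs. None of 3 motifs searched on both strands is in these windows. They were AGGTCA, a core of the sites of many nuclear receptors, which 14.0% of all promoters hold, CCAAT, which 33.9% hold, and TATAAA, which 12.4% hold.

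Transcripts that begin 137 or 17 bases before the upstream RefSeq start of Bdh1, 2 in number, held 92.4% of its summed FPKM over the 12 livers, with 77.5% in the lowest and 99.8% in the highest liver. The 4 transcripts that begin between 5 bases before and 546 bases after the second start held 0.0953% and were listed at 0.466 FPKM at most. The remaining 7.52% belonged to 3 transcripts that begin farther downstream. Cufflinks divides fragments among overlapping transcripts by estimation, which makes the sums firmer than any single transcript.

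Both genes were among the more abundant of the liver. Tested were the 11566 gene names that averaged 0.5 FPKM or more, and among these Acat1 ranked 327th with a mean of 266.8 FPKM and Bdh1 ranked 436th with 207.3 FPKM. Over all 12 livers the coefficient of variation was 11.3% for Acat1 and 12.7% for Bdh1, where the median of all genes tested was 19.4%.

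In ND livers 2, 3 and 4, Acat1 was at 317.1, 261.2 and 293.7 FPKM. In HFD livers 12, 15 and 18 it was at 288.6, 288.6 and 274.3 FPKM. CLE livers 2, 4 and 11 gave 264.1, 221.1 and 244.5 FPKM, and LU livers 2, 3 and 8 gave 247.8, 216.7 and 284.2 FPKM. The ND and HFD ranges overlapped, as did the CLE and ND ranges and the LU range with each of the others, whereas all 3 CLE livers were below all 3 HFD livers. The means were 290.7 ± 28.1 FPKM in ND, 283.8 ± 8.29 in HFD, 249.5 ± 33.8 in LU and 243.3 ± 21.5 in CLE livers (SD, n = 3 mice each). No neighbours in this order differed beyond their spread. Over the 4 groups together, the exact permutation test, which takes the F statistic in each of the 15400 splits of the livers, gave p = 0.113 for Acat1, unadjusted. In bulk tissue, fewer cells of a type and less RNA per cell cannot be told apart in any of these values.

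For Bdh1, ND livers 2, 3 and 4 gave 202.0, 205.0 and 182.5 FPKM. HFD livers 12, 15 and 18 gave 205.7, 186.4 and 218.0 FPKM. Values of 240.1, 167.6 and 217.8 FPKM were found in CLE livers 2, 4 and 11, and of 219.6, 181.8 and 261.2 FPKM in LU livers 2, 3 and 8. All 4 ranges overlapped, and CLE and LU livers held both the lowest and the highest values. The means were 220.9 ± 39.7 FPKM in LU, 208.5 ± 37.1 in CLE, 203.4 ± 16.0 in HFD and 196.5 ± 12.2 in ND livers (SD, n = 3 mice each). No neighbours in this order differed beyond their spread. The same exact permutation test over the 4 groups gave p = 0.770 for Bdh1, unadjusted.

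**Figure D1:**
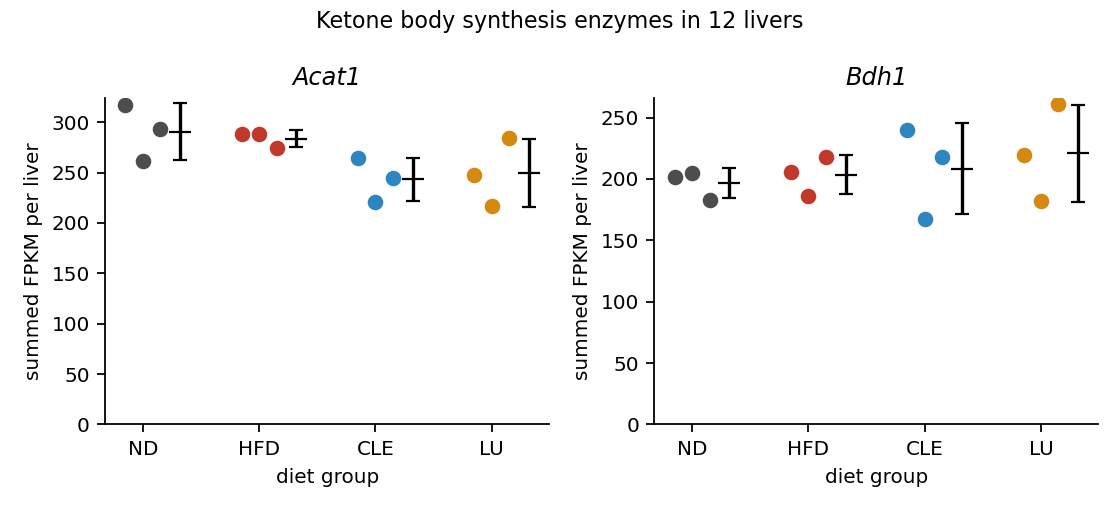
Summed FPKM of Acat1 (left) and Bdh1 (right) in each of the 12 livers by diet group; points are livers, in the order of their label numbers, and the bar beside them is the mean with its SD. All 3 CLE livers lie below the 3 HFD livers for Acat1, and the groups overlap for Bdh1.

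The diets were compared in pairs with limma, fitted to log2(FPKM + 1) of all 12 livers at once, with p-values adjusted over all 11566 genes. A fold change on this scale understates that of genes with low values, which does not bear on these abundant genes. For HFD against ND, which addresses the effect of the diet itself, the log2 fold change was -0.03 for Acat1 (95% interval -0.30 to 0.24, standard error 0.12, adjusted p = 0.91, limma) and 0.05 for Bdh1 (-0.28 to 0.38, standard error 0.15, adjusted p = 0.88). Thus 0 of the 2 genes passed, where 12.1% of all genes tested passed in this comparison. The ranges of ND and HFD livers were apart for 0 of the 2 genes, against 36.5% of all genes.

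For CLE against HFD, Acat1 gave -0.22 (95% interval -0.49 to 0.04, adjusted p = 0.24, limma) and Bdh1 gave 0.02 (-0.31 to 0.35, adjusted p = 0.93). Neither passed, and 6.03% of all genes did. The separate ranges of Acat1 are 1 of 2 genes, beside 31.3% of all genes tested. For LU against HFD, Acat1 gave -0.19 (-0.46 to 0.07, adjusted p = 0.38, limma) and Bdh1 gave 0.11 (-0.23 to 0.44, adjusted p = 0.72). Again neither passed, beside 1.03% of all genes, and the ranges overlapped for both genes, while 30% of all genes had separate ranges. These comparisons share the HFD livers and are not independent. The intervals leave room for changes of either gene in both directions, and a p above the threshold does not show that the diets acted alike.

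Against ND, CLE gave -0.26 for Acat1 (95% interval -0.52 to 0.01, adjusted p = 0.13, limma) and 0.07 for Bdh1 (-0.26 to 0.40, adjusted p = 0.75), in a comparison in which 27% of all genes passed. LU gave -0.22 for Acat1 (-0.49 to 0.04, adjusted p = 0.21) and 0.15 for Bdh1 (-0.18 to 0.49, adjusted p = 0.50), where 14.9% of all genes passed. Between CLE and LU, the extract and a flavone it contains, the values were -0.03 for Acat1 (-0.30 to 0.23, adjusted p = 0.99) and -0.08 for Bdh1 (-0.42 to 0.25, adjusted p = 0.98), and 0.00865% of all genes passed, which is 1 gene (508 at an unadjusted p under 0.05). With the libraries scaled by the median of ratios, Acat1 passed for CLE against ND (-0.43, adjusted p = 0.034), where 2841 of 11553 genes passed. With this scaling it also passed in the exact permutation test over the 4 groups (p = 0.0227, unadjusted).

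The deposited values as a whole were shifted between groups. The median log2 fold change of all genes tested was 0.11 for HFD against ND, 0.16 for CLE against ND and 0.12 for LU against ND, and relative to this median Acat1 gave -0.15, -0.41 and -0.34 in these comparisons and Bdh1 gave -0.07, -0.09 and 0.03. Of the genes that passed in HFD against ND, 1156 were higher and 244 lower, and 619 and 505 with median-of-ratios scaling. For CLE against ND the split went from 2416 higher and 703 lower to 1220 and 1621, and for LU against ND from 1290 and 437 to 710 and 1040.

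**Figure D2:**
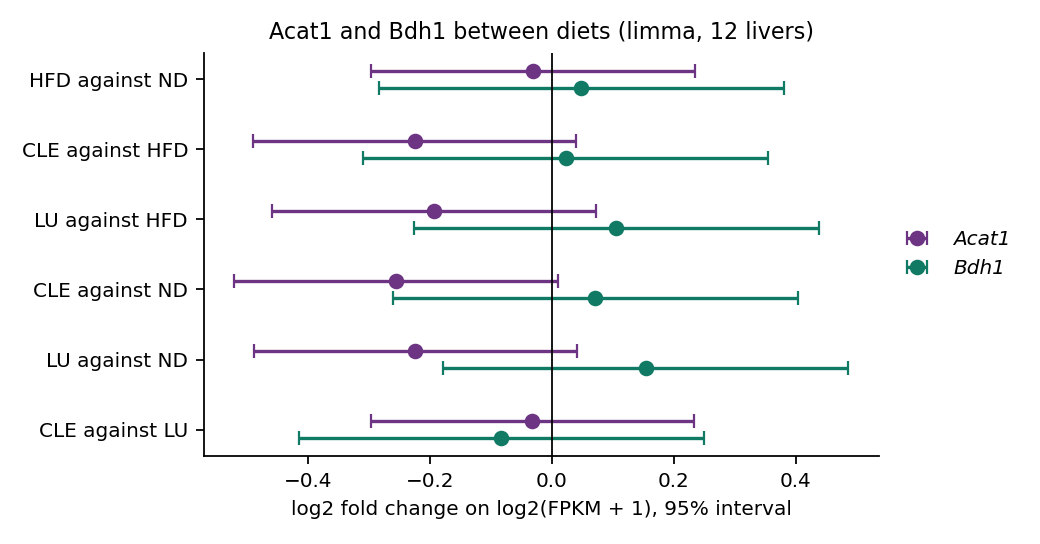
Log2 fold changes of Acat1 and Bdh1 with 95% intervals in the 6 comparisons between diets, from the limma fit over 12 livers; the line marks no difference. Every interval crosses it, and the estimates of Acat1 for CLE and LU against ND or HFD lie between -0.26 and -0.19.

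The ratio of Acat1 to Bdh1 within a liver, free of any scaling of the library, was 1.49 ± 0.18 in ND, 1.40 ± 0.15 in HFD, 1.18 ± 0.12 in CLE and 1.14 ± 0.05 in LU livers (SD, n = 3 mice each). LU livers lay between 1.09 and 1.19, below all HFD livers, which began at 1.26, and below all ND livers, which began at 1.27. CLE livers ran from 1.10 to 1.32 and overlapped both. This ratio was computed after the values were seen and was not tested. How many other gene pairs separate in this way was not counted. With annotated transcripts alone, Acat1 averaged 75.0 FPKM in ND, 82.6 in HFD, 94.2 in CLE and 98.1 in LU livers. Bdh1 averaged 167.1, 174.2, 169.4 and 183.8 FPKM in the same order, and a ratio of these means is not lower in CLE or LU livers. Over the 12 livers, the log2 values of Acat1 and Bdh1 correlated weakly, with Pearson's r = 0.29 and Spearman's rho = 0.08, as a description of livers that share diets and library properties.

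The sum of Acat1 was made up of 3 transcripts in the main. The annotated protein-coding transcript ENSMUST00000034547, of 3405 bases, held 30.4% of it over the 12 livers. A pair of transcripts that the authors' pipeline assembled from the reads at the same locus, named r6 and r8 in the table, held 38.5% and 28.6%. The assembled models of Acat1 reach 690 bases past the annotated 3′ end and 38 bases past the annotated 5′ end of the gene. The 500-base transcript ENSMUST00000169317, annotated as processed and not coding, held 2.36%, and the other 8 transcripts held small remainders. That short transcript was at 20.5 FPKM in CLE liver 4 and at 2.78 to 8.01 FPKM in the other 11 livers.

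Annotated and assembled transcripts of Acat1 moved apart between the diets. The annotated share was 25.2, 25.0 and 27.3% in ND livers 2, 3 and 4, and 31.0, 27.7 and 28.6% in HFD livers 12, 15 and 18. It was 32.4, 50.8 and 34.6% in CLE livers 2, 4 and 11, and 40.7, 42.7 and 35.5% in LU livers 2, 3 and 8. Thus every CLE and LU liver was above every ND and HFD liver, and CLE liver 4 was the highest. This way of dividing the livers was chosen after the values were seen and was not tested. Of 9298 genes tested whose mean annotated share lay between 1 and 99%, 237 (2.55%) were higher in all CLE and LU livers than in all others and 659 (7.09%) were lower, and the separation was thus not particular to Acat1. In FPKM, the annotated transcripts summed to 75.0 ± 8.5 in ND, 82.6 ± 5.93 in HFD, 94.2 ± 15.8 in CLE and 98.1 ± 4.86 in LU livers, while the assembled ones summed to 216 ± 20.7, 201 ± 6.60, 149 ± 36.2 and 152 ± 29.8 (SD, n = 3 each).

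Because of this, the direction of the Acat1 estimates depends on which transcripts are counted. With annotated transcripts alone, CLE against HFD was 0.18 and LU against HFD 0.25 (adjusted p = 0.39 and 0.29, limma), where the sums of all transcripts gave -0.22 and -0.19. Against ND, CLE gave 0.32 and LU 0.39 (adjusted p = 0.10 and 0.071). The assembled r6 transcript, the one with the highest mean, gave p = 0.0304 in the exact permutation test over the 4 groups, unadjusted. As a single transcript it is less firm than the sum. The r6 values were 129 ± 2.32 FPKM in ND, 113 ± 8.81 in HFD, 81.7 ± 32.4 in CLE and 87.4 ± 12.6 in LU livers. In CLE liver 4 r6 was at 44.7 FPKM, the lowest of the 12. Taken alone in the limma fit, r6 gave -0.20 for HFD against ND, -0.55 for CLE and -0.37 for LU against HFD, and -0.74 for CLE and -0.57 for LU against ND, with adjusted p-values of 0.057 for CLE against ND and 0.15 or more for the others.

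Bdh1 was mostly annotated throughout, at 85.1% in ND, 85.7% in HFD, 81.1% in CLE and 83.0% in LU livers. Its full-length transcript ENSMUST00000089759, of 1711 bases, held 77.4% of its sum and ran from 124.0 FPKM in CLE liver 4 to 189.1 in LU liver 8. CLE liver 4 also gave 28.6 FPKM to an assembled Bdh1 transcript from a downstream start that was at 3.33 FPKM or less in the other livers.

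A library property of all genes went along with this division. For each library, the departures of genes from their average over the 12 libraries were correlated with gene GC content (Spearman, across genes). This correlation ran from -0.37 to -0.14 in ND and HFD livers and from 0.16 to 0.48 in CLE and LU livers, and was highest in CLE liver 4. Genes are not independent replicates and no p is given. The part of this difference in the transcript shares was not tested, and library property and treatment cannot be told apart. After a correction for GC content, chosen after seeing the data, Acat1 gave -0.15 for HFD against ND, -0.11 for CLE and -0.07 for LU against HFD, and -0.25 for CLE and -0.22 for LU against ND (adjusted p = 0.49, 0.61, 0.80, 0.16 and 0.26, limma).

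**Figure D3:**
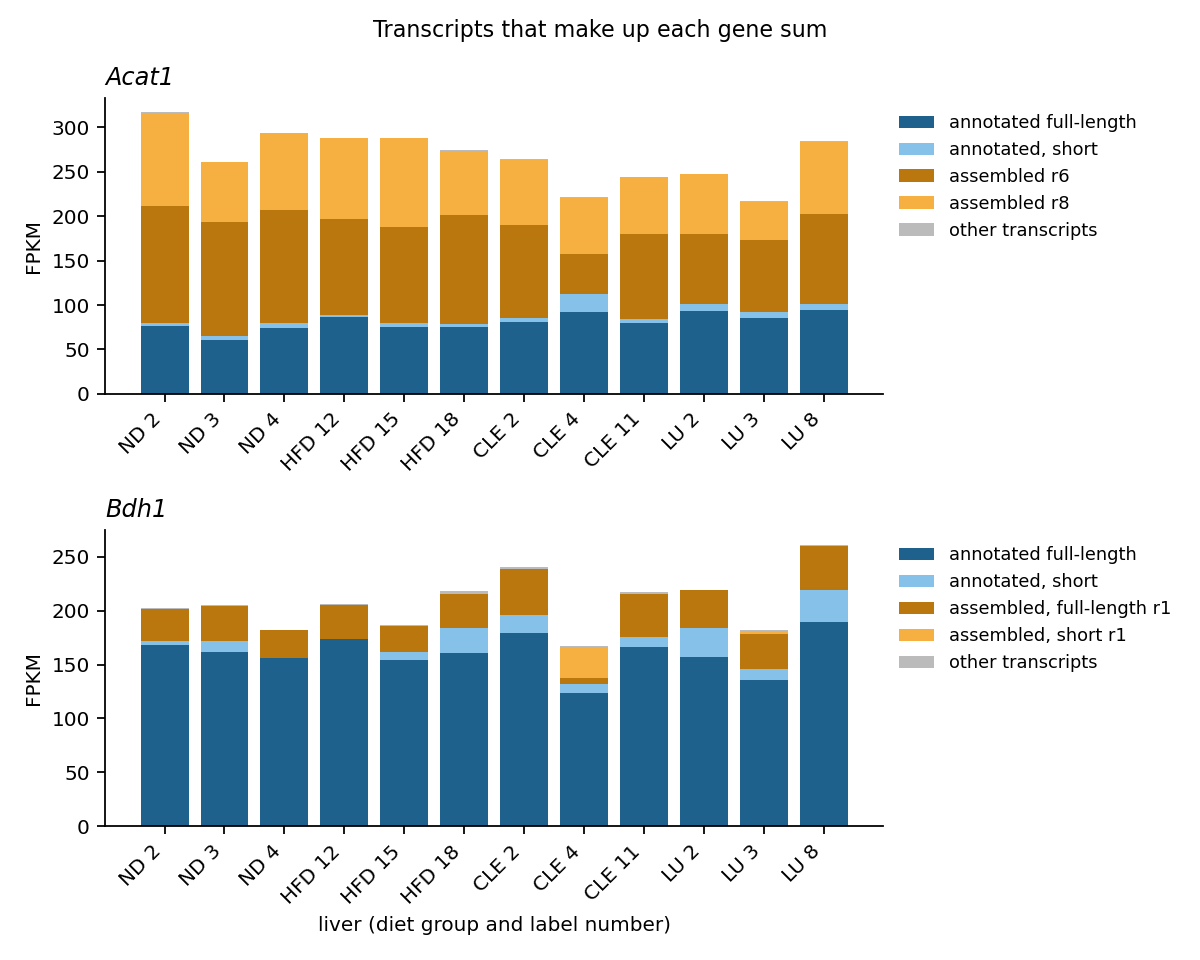
FPKM of the transcripts of Acat1 (top) and Bdh1 (bottom) stacked for each liver; blue parts are annotated transcripts, orange parts were assembled from the reads, and grey is the rest. The annotated part of Acat1 is a larger share of the bar in the CLE and LU livers, up to 50.8% in CLE liver 4, while Bdh1 is mostly annotated in every liver.

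Of the 3 tested genes of ketone body use, Bdh2 was the one that passed. It did so in HFD against ND and in CLE against HFD, beside 12.1% and 6.03% of all genes. Bdh2 encodes a cytosolic enzyme that, like Bdh1, can oxidize 3-hydroxybutyrate. It was at 3.24, 3.34 and 6.60 FPKM in ND livers 2, 3 and 4 and at 12.0, 10.4 and 12.3 FPKM in HFD livers 12, 15 and 18. CLE livers 2, 4 and 11 gave 4.09, 6.58 and 7.20 FPKM, and LU livers 2, 3 and 8 gave 5.42, 4.73 and 6.22 FPKM. All HFD livers were above all others. Bdh2 was higher in HFD than in ND livers by 1.28 on the log2 scale (standard error 0.22, adjusted p = 0.0033, limma), and lower in CLE than in HFD livers by the same test (-0.88, adjusted p = 0.041). LU against HFD gave -0.97 (adjusted p = 0.063). With annotated transcripts alone, Bdh2 gave 0.31 for HFD against ND and 0.24 for CLE against HFD (adjusted p = 0.61 for both), so its calls rest on assembled transcripts. The call for CLE was also lost without HFD liver 12, 15 or 18, without CLE liver 2 or 4 and without LU liver 2, with log2 fold changes of -0.96 to -0.67 (adjusted p = 0.052 to 0.14).

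Oxct1, the enzyme that activates acetoacetate for use and is scarce in hepatocytes, was at 1.02 to 2.61 FPKM over the 12 livers, and Aacs, a cytosolic acetoacetyl-CoA synthetase, at 2.50 to 26.2 FPKM. Oxct1 gave 0.30 and Aacs 0.47 for HFD against ND (adjusted p = 0.29 and 0.67, limma), and neither passed in the other comparisons. Oxct2a and Oxct2b, copies of Oxct1 known from testis, were listed at 0 or at up to 0.0475 FPKM and were not tested.

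Ketone bodies leave and enter cells through monocarboxylate transporters. Here 3 of the 4 tested genes passed between HFD and ND livers, beside 12.1% of all genes, and the calls of Slc16a1 and Bsg were lost under some alternatives. Slc16a7, a high-affinity monocarboxylate transporter, was at 27.0, 29.1 and 29.9 FPKM in ND livers 2, 3 and 4 and at 74.1, 73.8 and 68.0 FPKM in HFD livers 12, 15 and 18. CLE livers 2, 4 and 11 gave 47.4, 36.3 and 43.3 FPKM and LU livers 2, 3 and 8 gave 39.9, 35.6 and 50.2 FPKM, between the other groups and without overlap with either. Slc16a7 was higher by 1.30 on the log2 scale in HFD than in ND livers (standard error 0.13, adjusted p = 9.0e-05, limma). By the same test it was lower in CLE and LU than in HFD livers, with -0.76 for CLE and -0.78 for LU (adjusted p = 0.016 and 0.017). The rise in HFD livers passed in all 25 alternatives. With a clock-gene score added to the fit, the calls for CLE and LU against HFD were both lost (-0.66 and -0.68, adjusted p = 0.084 and 0.11, limma). The call for CLE was lost without HFD liver 12 or 15 or CLE liver 4 (log2 fold changes -0.74 to -0.65, adjusted p = 0.055 to 0.085), and the call for LU without HFD liver 12, 15 or 18 or LU liver 2 or 3 (-0.82 to -0.67, adjusted p = 0.058 to 0.091).

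Slc16a1, the widely expressed transporter of lactate and ketone bodies, was at 55.7, 38.6 and 42.9 FPKM in ND livers 2, 3 and 4 and at 21.1, 29.3 and 23.8 FPKM in HFD livers 12, 15 and 18. It was at 34.2, 26.1 and 24.1 FPKM in CLE livers 2, 4 and 11 and at 19.6, 19.5 and 34.4 FPKM in LU livers 2, 3 and 8. All ND livers were above all others. Slc16a1 fell by 0.86 on the log2 scale in HFD livers (standard error 0.22, adjusted p = 0.023, limma), and CLE and LU against HFD gave 0.18 and -0.05 (adjusted p = 0.61 and 0.92). The call was lost without ND liver 2 or 4 or HFD liver 12 or 18 (-0.89 to -0.71, adjusted p = 0.055 to 0.11), and with a clock-gene score added to the fit it was -0.42 (adjusted p = 0.38). Bsg, the membrane chaperone of this transporter, was at 170.4 ± 8.28 FPKM in ND and 240.4 ± 12.7 in HFD livers and rose by 0.49 (adjusted p = 0.0051), a call that median-of-ratios scaling ended (0.33, adjusted p = 0.051). Slc16a6, a ketone body exporter of hepatocytes, gave -0.16 in HFD against ND, -0.14 in CLE against HFD and -0.38 in LU against HFD (adjusted p = 0.68, 0.67 and 0.30), and Slc16a3 was under the filter, at 0.199 to 0.880 FPKM.

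**Figure D4:**
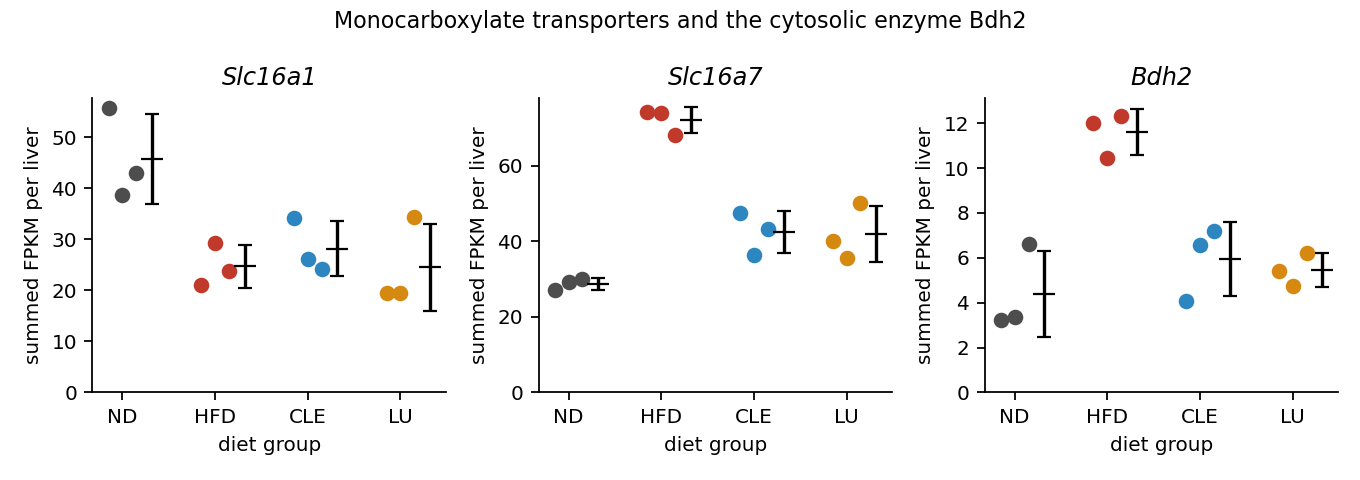
Summed FPKM of Slc16a1, Slc16a7 and Bdh2 in each liver by diet group, with the mean and SD beside the points; the axes start at 0. Slc16a7 and Bdh2 are highest in the 3 HFD livers and Slc16a1 is highest in the 3 ND livers.

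**Figure D5:**
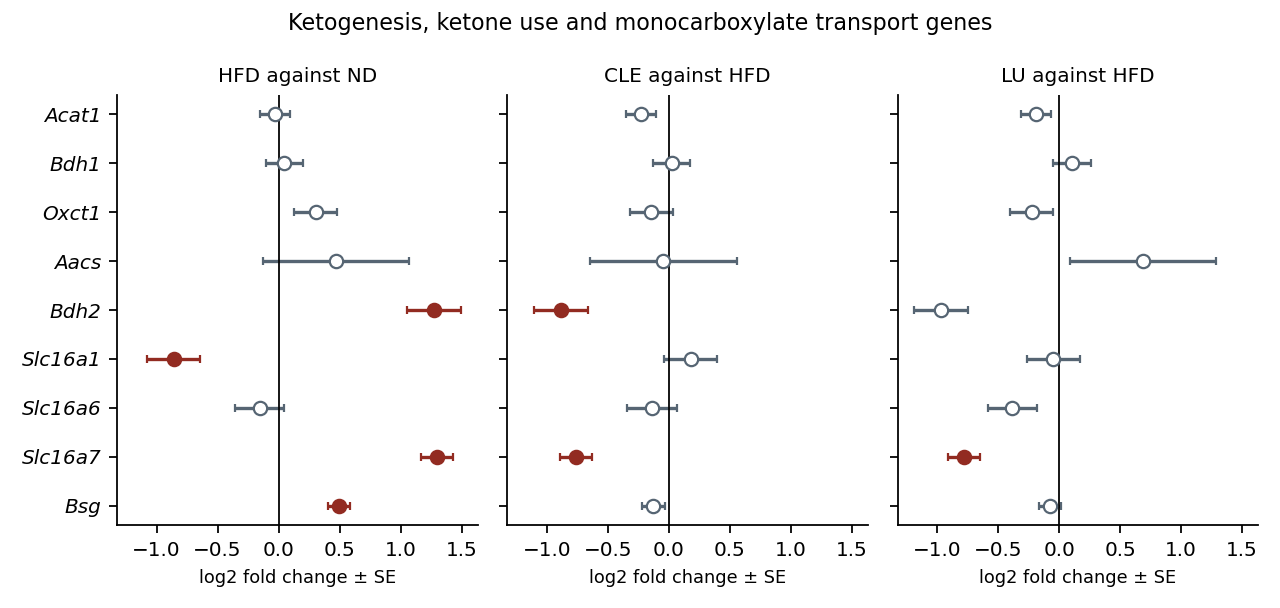
Log2 fold changes with standard errors of the tested genes of ketone body synthesis, use and transport in HFD against ND and in CLE and LU against HFD; filled red points passed an adjusted p of 0.05 over all genes and open grey points did not. Acat1 and Bdh1 at the top are open in each panel, and Slc16a7 is filled in all 3.

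Mitochondrial fatty acid oxidation supplies the acetyl-CoA used by Acat1. The median log2 fold change of 15 of its genes in HFD against ND was -0.10, where that of all genes was 0.11. Where 12.1% of all genes passed, 3 of the 15 were lower and 0 higher in HFD than in ND livers. They were Cpt1a, the carnitine palmitoyltransferase that admits fatty acids to mitochondria (338.7 ± 6.76 against 243.1 ± 29.3 FPKM, log2 fold change -0.48, adjusted p = 0.033, limma), and both subunits of the trifunctional protein, Hadha (-0.46, adjusted p = 0.036) and Hadhb (-0.63, adjusted p = 0.010). The call of Cpt1a was lost without any of ND livers 2, 3 and 4 or HFD livers 12 and 15 (-0.50 to -0.41, adjusted p = 0.074 to 0.12), that of Hadha whichever ND or HFD liver was left out (-0.50 to -0.42, adjusted p = 0.057 to 0.13) and that of Hadhb without ND liver 2 (-0.56, adjusted p = 0.053). None of the 15 passed in CLE or LU against HFD, where 6.03% and 1.03% of all genes did.

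Of 8 regulators of ketogenesis (Ppara, Rxra, Ppargc1a, Creb3l3, Foxa2, Sirt3, Sirt5 and Fgf21), 0 passed in these 3 comparisons. For this and the next 2 lists, the shares of all genes that passed were 12.1% in HFD against ND, 6.03% in CLE against HFD and 1.03% in LU against HFD. Of 13 tested genes of isoleucine and leucine breakdown, Mccc1, a subunit of methylcrotonyl-CoA carboxylase, was higher in HFD than in ND livers (0.53, adjusted p = 0.036, limma) and lower with CLE than with HFD (-0.65, adjusted p = 0.035). Bcat2, a branched-chain aminotransferase, was higher with CLE than with HFD (0.61, adjusted p = 0.022). Of 7 other thiolases, Acaa1a of peroxisomes was higher with CLE than with HFD (0.66, adjusted p = 0.049), and Hadhb, counted in both lists, was lower in HFD livers. Leaving out 1 liver ended the call of Mccc1 in HFD against ND whichever ND or HFD liver it was (0.44 to 0.60, adjusted p = 0.054 to 0.15), and in CLE against HFD for HFD liver 12, 15 or 18 or CLE liver 4 (-0.67 to -0.45, adjusted p = 0.073 to 0.14). It ended that of Bcat2 for the same 4 livers (0.47 to 0.64, adjusted p = 0.059 to 0.091) and that of Acaa1a for any liver but CLE livers 2 and 11 (0.46 to 0.74, adjusted p = 0.055 to 0.19).

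Counted once each, the 7 lists hold 51 genes, of which 48 were tested. In HFD against ND, 4 were higher and 4 lower; in CLE against HFD, 2 were higher and 3 lower; in LU against HFD, 1 was lower. Against ND, 8 were higher and 6 lower with CLE, and 4 were higher and 4 lower with LU, and 0 passed between CLE and LU. These shares stand beside the percentages of all genes given above. Of the 14 calls in HFD against ND and in the 2 comparisons with HFD, 12 were lost with the clock-gene score in the fit, the exceptions being Slc16a7 and Bdh2 in HFD against ND. All 12 kept their direction, with log2 fold changes of 0.492 times the reported value for Slc16a1, 0.581 for Hadha and 0.702 to 1.26 for the others, and with standard errors 1.09 to 1.40 times as large. The score itself differed between the groups, at -3.27 to -0.69 in ND, -1.26 to 0.51 in HFD and 0.27 to 1.92 in CLE and LU livers. Score and diet thus cannot be told apart in these fits. Among all alternatives but the left-out livers, the call was lost in 4 of 13 for Slc16a1 and Cpt1a, 3 for Hadha, 2 for Hadhb and 8 for Mccc1 in HFD against ND, and with CLE in 9 of 13 for Acaa1a, 6 for Bdh2, 4 for Mccc1 and 2 of 11 for Bcat2.

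Some markers of other cell types were higher in HFD than in ND livers. The summed level of 4 Kupffer cell and macrophage markers was 51.9 to 53.6 FPKM in ND, 69.2 to 95.9 in HFD, 79.5 to 94.9 in CLE and 56.0 to 88.1 in LU livers, and that of 3 endothelial markers 51.4 to 60.5, 67.8 to 70.6, 75.3 to 86.3 and 71.0 to 96.6. In HFD against ND, 2 of 3 tested macrophage, 1 of 3 endothelial, 1 of 3 stellate, 1 of 1 adipocyte, 0 of 1 cholangiocyte, 0 of 1 lymphocyte, 0 of 1 red cell and 0 of 5 hepatocyte markers were higher. Over all genes, 12.1% passed in this comparison, 1156 of them higher and 244 lower. In CLE and LU against HFD no marker of the other cell types passed, beside 6.03% and 1.03% of all genes. Of the hepatocyte markers, Apoa1 was higher with CLE than with HFD (0.84, adjusted p = 0.037, limma). The other tested hepatocyte markers had estimates in the other direction in this comparison, and none passed. They were Cps1 (-0.48), Tat (-0.33), Apob (-0.26) and Ttr (-0.23). Cholangiocyte markers summed to 0.615 to 2.31 FPKM and lymphocyte markers to 1.83 to 3.65 FPKM. The 3 adipocyte markers summed to 0.996 to 1.67 FPKM in ND, 58.9 to 103.7 in HFD, 21.9 to 150.2 in CLE and 72.0 to 266.0 in LU livers. Most of this in every liver was Cfd, the serine protease adipsin, the adipocyte marker that passed, with a log2 fold change of 5.11 in HFD against ND (adjusted p = 0.00019, limma). The other 2 adipocyte markers, Adipoq and Plin1, stayed at or under 0.758 and 0.338 FPKM and were not tested, and both were highest in LU liver 2. All LU livers, from 0.50 FPKM for Adipoq and 0.14 for Plin1, were above all other livers, which reached 0.145 and 0.0274 FPKM. Unlike Cfd, both had lower means in HFD (0.012 and 0.0072 FPKM) than in ND livers (0.027 and 0.016 FPKM). The hepatocyte markers other than Alb summed to 9825 to 15547 FPKM over the 12 livers, and Alb itself was listed at 0 in 11 of them, which can be a failed estimate. The part of the cell makeup in the values of Acat1 and Bdh1 was not tested.

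The genes whose log2 values followed Acat1 most closely over the 12 livers were Ei24 (Pearson's r = 0.96), Insig2 (0.93), Dnaja2 (0.93), Dld (0.92) and Mmd (0.91). Those closest to Bdh1 were Nudcd2 (0.90), Got2 (0.84), C1rl (0.83), Atxn10 (0.83) and Zfp422 (0.83). Dld, the dihydrolipoamide dehydrogenase of mitochondrial dehydrogenase complexes, is among the genes of the branched-chain list. These are the highest of 11566 genes over 12 points that share diets and library properties, and are given as a description.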

How the data were processed

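RNA of 12 mouse livers was sequenced, 3 in each of 4 diet groups taken from the labels. Per the labels and the methods, the authors used CASAVA 1.8.2, TopHat2 2.0.12, Bowtie2 2.2.3 and Cufflinks 2.2.1. The deposited values are FPKM for 152210 transcripts, 73424 of them assembled from reads; whether normalization factors are included and the genome build are not given in the sources used here. The ends of 85.6% of the known transcripts match GENCODE M21 (GRCm38), which gave coordinates. Read counts cannot be recovered, so depth is unknown and no counting interval is given.

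FPKM was summed by gene name and log2(FPKM + 1) fitted with limma 3.58.1 in R 4.3.3 (variance trend, 4 group coefficients, 12.8 degrees of freedom), for genes averaging 0.5 FPKM or more, with two-sided tests and Benjamini-Hochberg adjustment over 11566 genes at 0.05. The fit was checked on simulated data. An exact test of 3 livers against 3 cannot go below p = 0.10, so each gene was also tested over the 4 groups. Mice are the replicates.

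The members and lists were chosen with earlier results of these data known. Named were both members, all genes of ketone use and transport, from 4 other lists those that passed in HFD against ND, CLE against HFD or LU against HFD (at most 5 a comparison), and the 5 genes most like each member. Some genes of the pathway are not reported here and were left out of the lists. Alternatives were a pseudocount of 0.1, no filter, a filter at a mean of 5 FPKM, quantile normalization, median-of-ratios scaling, 2 groups alone, the most abundant transcript only, no variance trend, known transcripts only, a clock-gene score as covariate, each liver left out and a replicate block. Corrections for GC content and transcript length, sums by M21 gene and the unblocked fit of the block's livers were chosen after seeing the data.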

Additional observations from a re-analysis of the deposited data

How the results depend on the processing

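Of 320 alternatives for the 2 genes, 276 kept direction and side of the threshold, 3 passed where the reported value did not, and 41 turned the direction, each of a value that did not pass before or after. Where no value below shows a cause, the cause was not tested.

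The 3 that passed were Acat1 in CLE against ND with median-of-ratios scaling (-0.43, adjusted p = 0.034, limma) and Acat1 over the 4 groups with median-of-ratios scaling (exact permutation p = 0.0227, unadjusted) and with its most abundant transcript alone (p = 0.0304, unadjusted). With known transcripts only, the log2 fold change of Acat1 turned to 0.14 in HFD against ND, 0.18 in CLE against HFD, 0.25 in LU against HFD, 0.32 in CLE against ND and 0.39 in LU against ND, that of Bdh1 to -0.057 in CLE against HFD, and that of Bdh2 to 0.24 in CLE against HFD. With the clock-gene score, Acat1 turned to 0.15 in HFD against ND, 0.033 in CLE against ND and 0.070 in LU against ND. Bdh1 turned to -0.11 in HFD against ND and -0.10 in CLE against ND with median-of-ratios scaling, and to -0.0059 in HFD against ND with quantile normalization. With the most abundant transcript alone, Bdh1 turned to -0.073 in CLE against HFD, -0.032 in LU against HFD, -0.064 in CLE against ND and -0.024 in LU against ND. The corrections for GC content and transcript length, in this order, turned Bdh1 to -0.094 and -0.097 in HFD against ND, -0.030 and -0.040 in CLE against HFD, -0.12 and -0.14 in CLE against ND, and -0.0058 and -0.026 in LU against ND.

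With each liver left out, Acat1 ranged from -0.10 to 0.034 in HFD against ND, -0.29 to -0.096 in LU against HFD, -0.32 to -0.13 in LU against ND and -0.13 to 0.066 in CLE against LU, and Bdh1 from -0.0039 to 0.11 in HFD against ND, -0.087 to 0.17 in CLE against HFD, -0.022 to 0.24 in LU against HFD, -0.038 to 0.22 in CLE against ND, 0.026 to 0.29 in LU against ND and -0.22 to 0.065 in CLE against LU. Neither gene passed in any of them.

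Label numbers are shared by some ND, CLE and LU livers. The deviations of same-numbered livers from their group means correlated at -0.26 to 0.18. Without other pairs set beside them, these few values cannot settle whether a number marks a shared block. The numbers are used above only to name livers. With the number as a replicate block over 7 livers, Acat1 gave -0.32, -0.33 and 0.015 and Bdh1 0.04, -0.066 and 0.10 in CLE against ND, LU against ND and CLE against LU, with no pass. The same 7 livers without the block gave 0.061 for Acat1 and 0.0058 for Bdh1 in CLE against LU. HFD livers share no number, and no paired fit was possible for them. The block moved the genes passing from 3119 to 338 in CLE against ND, 1727 to 19 in LU against ND and 1 to 2 in CLE against LU, and the same livers without it gave 1100, 312 and 4.

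Counts over all genes moved by more than 1.5 times. In HFD against ND, 1400 became 395 with the clock-gene score, 661 with known transcripts, 645 with the most abundant transcript and 656 to 845 without HFD liver 12 or 18 or ND liver 2 or 4. In CLE against HFD, 698 became 44 with the clock-gene score, 335 with the GC correction, 127 with no filter, 1095 with quantile normalization, 91 with the 2 groups alone, 263 with the most abundant transcript and 28 to 2190 without single livers. In LU against HFD, 119 became 13 with the clock-gene score, 57 with no filter, 262 with the 2 groups alone and 11 to 545 without single livers. In CLE against ND, 3119 became 10 with the clock-gene score, 1984 with the GC correction, 1809 with the 2 groups alone and 1594 to 2020 without CLE liver 4 or ND liver 2 or 4. In LU against ND, 1727 became 12 with the clock-gene score and 640 to 1082 without single livers. In CLE against LU, 1 became 0 to 3 under 7 further settings. With 3 livers a group, the 95% intervals reach 0.27 on the log2 scale to each side for Acat1 and 0.33 for Bdh1.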
